A study of Oryctolagus cuniculus with 8 samples.

Results

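The comparison set 2 early passage induced pluripotent stem (iPS) cell samples against 2 embryonic stem (ES) cell samples of the Dutch rabbit, 4 of the 8 samples of the series. The early iPS samples were a liver-derived line at passage 7 and a stomach-derived line at passage 6, and the ES samples were the lines rdES4 and rdES2-1. The other 4 samples were the same iPS lines at passages 23 and 22 and the liver and stomach cells themselves. The 4 samples were chosen by their labels alone, and no measured value entered the choice. ES and iPS cells were kept, per the labels, in stem cell medium and the liver and stomach cells in somatic cell medium. Each tissue of origin is represented by 1 iPS line, and the reprogramming factors are not given in the sources used here. The 2 samples of each group are different lines with 1 array each, so the spread within a group holds differences between lines and technical error together. The labels do not say whether the lines came from separate animals, and the p-values cover no more than the variation among these particular samples. The question posed by the design is how far early reprogrammed rabbit cells differ in their RNA from ES cells.

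ES cells are taken from the early embryo and can give rise to all tissues of the body. iPS cells are body cells that were turned back to a similar state by introduced transcription factors, among which Oct4, the product of POU5F1, is the most widely used. Genes of the starting cell type are known to be silenced by degrees after reprogramming, and iPS cells at low passage are known from other work to keep some RNA of the cells they came from.

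Total RNA was labelled with Cy3 and hybridised to 1-colour Agilent arrays, 1 array per sample, with 43603 different probes. A level is the log2 of a probe's processed signal relative to its own array's 75th percentile, which is 0 on this scale, and a difference of 1 is a doubling. A probe was tested when the scanner software had marked it as well above background on both arrays of at least 1 of the 4 groups, which left 28848 probes. Only 1933 probes carried a gene symbol here, and 511 named genes were tested, each through the probe with the highest mean over all arrays. Between 62.69% and 64.65% of probes were well above background on the ES and early iPS arrays, and no spot was saturated. rdES4 and the early liver line shared a slide, while rdES2-1 and the early stomach line were each on a slide of their own within this comparison. With 2 arrays in each group, the number of arrays limits the precision. Differences are given as early iPS minus ES ± the standard error, from limma with Benjamini-Hochberg adjustment over all tested probes.

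Early iPS and ES cells had closely similar profiles. The log2 differences over tested probes had an SD of 0.489 between the 2 ES lines and 0.508 between the 2 early iPS lines, against 0.567 to 0.693 for the 4 pairings of an ES array with an early iPS array. The early stomach line was nearer than the early liver line to both ES lines, with SDs of 0.567 and 0.584 against 0.622 and 0.693. The median difference over all tested probes was -0.0028, and 1473 probes (5.11%) differed at least 2-fold, 630 of them higher and 843 lower in early iPS cells. These counts describe sizes and carry no test.

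Of the 28848 tested probes, 12 (0.0416%) passed an adjusted p of 0.05, 4 higher (0.0139%) and 8 lower (0.0277%) in early iPS cells. The 4 were 2 probes of CAV1, the gene of caveolin 1, and 2 probes with no symbol here, and none of the 8 had a symbol. At an unadjusted p under 0.05 there were 3341 probes (11.6%), 1400 higher (4.85%) and 1941 lower (6.73%). No named gene passed when each was represented by its brightest probe, while 71 of 511 (13.9%) had an unadjusted p under 0.05, 32 higher and 39 lower. With the slide as a block 0 probes passed the adjusted p, with 3097 at an unadjusted p under 0.05. The values on slide 1 alone, early liver line minus rdES4, are therefore given beside the main results. Fits without 1 array called 1 probe without the early liver line, 0 without the early stomach line, 3 without rdES4 and 9 without rdES2-1, of which 0, 0, 1 and 4 were among the 12.

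**Figure D1:**
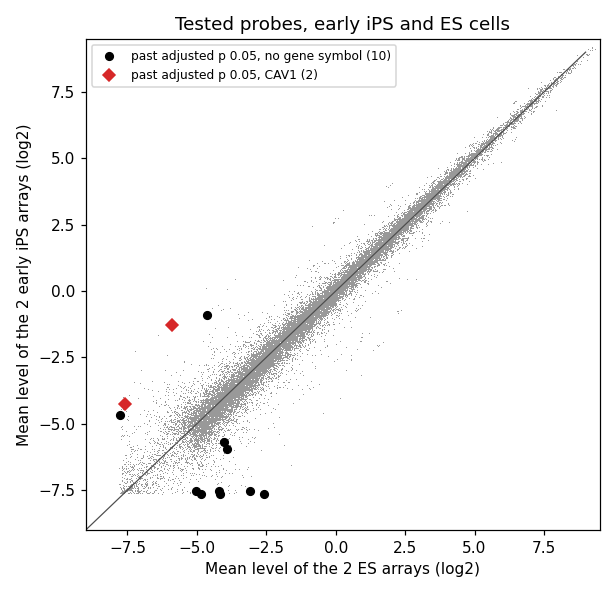
Mean level on the 2 early iPS arrays (vertical axis, log2 relative to the 75th percentile of the array) against that on the 2 ES arrays (horizontal axis) for the 28848 tested probes, with the line of equal level. Most points lie along the line; the 2 CAV1 probes past the threshold lie above it at the dim end, with 2 of the 10 probes without a symbol, and the other 8 lie below it.

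CAV1 was higher in both early iPS lines than in both ES lines at each of its 7 tested probes; values of the groups did not overlap at 48.6% of all tested probes. Caveolin 1 is the main structural protein of caveolae, small pits of the cell membrane, and is abundant in fibroblasts, smooth muscle and endothelium. At the probe that passed with the largest difference (A_04_P002427), the level was -5.85 in rdES4 and -5.95 in rdES2-1, against -0.95 in the early liver line and -1.63 in the early stomach line. The ES values lay far below both early iPS values, and their closeness is that of signals not well above background. This probe rose by 4.61 ± 0.31 (adjusted p = 0.0208, n = 2 and 2, limma), and by 4.89 on slide 1. It was not well above background on either ES array, so the fold is a bound: at least 18-fold higher in early iPS cells. Here and below, such a bound compares the brighter group's mean with a floor for the dimmer group. On each array the floor is the weakest signal of any probe marked well above background, or the probe's own signal where that is higher. The bounds hold for the main processing and the probe named, and values with another background correction can lie below them.

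The second CAV1 probe past the threshold (A_04_P004337) had levels of -7.55 and -7.65 in the ES lines and of -3.98 and -4.52 in the early liver and stomach lines. It rose by 3.36 ± 0.24 (adjusted p = 0.0208), at least 2.33-fold. This probe was not well above background on any ES or late iPS array. The standard error rests on a spread shared by all 4 groups, and these near-floor values enter it. Whether they made the error and p too small was not tested. The brightest CAV1 probe, well above background on all 4 arrays, had levels of -3.83 and -4.01 in the ES lines and of 0.36 and -0.31 in the early iPS lines. Its difference was 3.95 ± 0.39, or 15.4-fold, with an adjusted p of 0.0594, just outside the threshold. Over the alternatives its difference lay between 2.22 and 4.28, with adjusted p between 0.0555 and 0.28. The mean of the 7 probes differed by 3.49 (adjusted p = 0.0518). Across the 7 probes the difference ran from 2.33 to 4.61 and on slide 1 from 1.81 to 4.89. The 7 probes share a transcript and are not replicates of the comparison. Normexp is a model-based background correction, run here on the raw median signals with an offset of 50 added to every signal. Such an offset shrinks differences between dim signals by construction, here and below, and its part in the smaller values was not tested. With normexp, the 2 probes past the threshold had differences of 1.48 and 0.26, and neither passed. They also missed the threshold with the slide as a block and without any 1 of the 4 arrays.

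CAV1 was also followed across the other groups. In liver and stomach cells the brightest probe stood at 4.76 and 4.13, above both early iPS lines. In the late passage liver and stomach lines it stood at -2.67 and -3.57, between the ES and the early iPS values. Across the 7 probes, late minus ES ran from -0.45 to 1.76, beside the early minus ES values of 2.33 to 4.61, and both used the same ES arrays. Late minus early iPS, a difference in which the ES arrays cancel, ran from -3.43 to -2.78. The ES arrays still enter the shared spread behind its p-values. Of the 7 probes 1 passed (A_04_P004337, -3.40 ± 0.24, adjusted p = 0.0379). That call was lost with the line as a block.

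**Figure D2:**
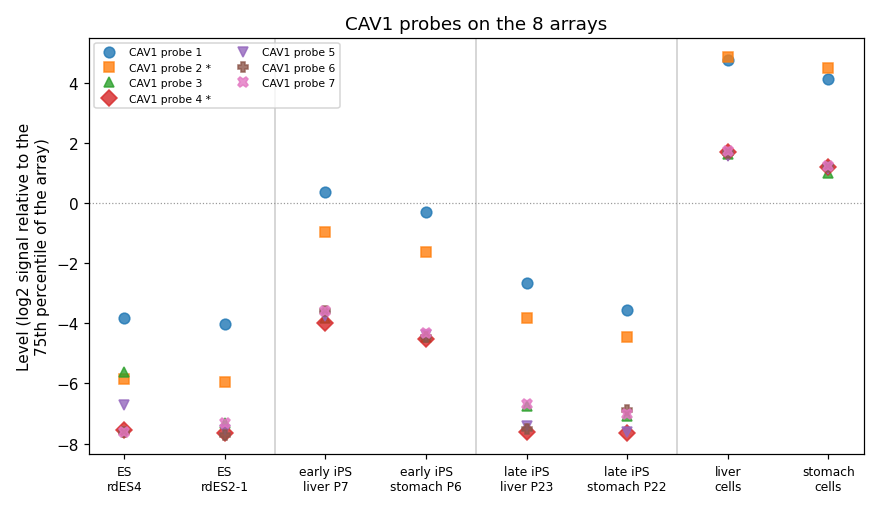
Level of each of the 7 tested CAV1 probes (vertical axis, log2 relative to the 75th percentile of the array) on each of the 8 arrays; an asterisk marks the 2 probes past the threshold between early iPS and ES cells. At every probe both early iPS arrays lie above both ES arrays, and the liver and stomach cells lie above both.

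The 10 other probes past the threshold have no symbol, and the 4 described here were picked after their values were seen. A_04_P031867 was the only one of the 12 that was well above background on all 4 arrays. Its level was -4.49 in rdES4, -4.76 in rdES2-1, -0.54 in the early liver line and -1.24 in the early stomach line. It rose by 3.74 ± 0.31 (adjusted p = 0.0457; 3.95 on slide 1). In contrast to CAV1, its levels in liver and stomach cells, -4.14 and -4.74, were near those of the ES lines, and the late lines stood at -5.34 and -5.62. A_04_P079447 had -7.71 and -7.85 in the ES lines, -4.51 and -4.85 in the early iPS lines and -7.71 and -7.65 in the late lines. It rose at least 1.72-fold in early iPS over ES cells (adjusted p = 0.0125). With normexp correction its difference was 0.19 (adjusted p = 0.496), below that bound.

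All 8 probes that fell were not well above background on either early iPS array, so near-floor values enter the shared spread behind their p-values too. A_04_P061648 had levels of -2.16 and -2.98 in the ES lines and of -7.66 on both early iPS arrays, at least 6.92-fold higher in ES cells (adjusted p = 0.0125). A_04_P056717 had -2.88 and -3.33 in the ES lines against -7.68 and -7.42 in early iPS cells, at least 4.79-fold higher in ES cells (adjusted p = 0.0125). Both were low in the late lines too, at -7.71 and -7.31 for the first and -7.54 and -7.18 for the second. They were also low in liver cells, at -6.85 and -6.64, so that of the 4 groups only the ES lines stood well above background at these 2 probes. Both thus entered the test through the ES arrays alone, and A_04_P079447 through the early iPS arrays alone. High levels in those groups are therefore part of how these probes were selected. The differences of A_04_P061648 and A_04_P056717 were -1.01 and -0.84 with normexp correction, and neither passed. All 4 probes described also missed the threshold with the slide as a block and without either early iPS array. A_04_P031867 and A_04_P079447 missed it without either ES array, and A_04_P056717 without rdES4.

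Since no named gene passed through its brightest probe, the genes below are the 15 higher and 15 lower ones with the largest moderated statistic, and their values are descriptions. None overlapped between the groups, against 278 of all 511 named genes (54.4%), so non-overlap with 2 arrays against 2 says little. Among pluripotency genes, POU5F1 and PODXL stood at a high level in all 4 samples, and KLF5 did not. POU5F1, the gene of Oct4, had levels of 7.14 and 6.69 in rdES4 and rdES2-1 and of 7.62 and 7.57 in the early liver and stomach lines. Both early iPS values were above both ES values, with a difference of 0.68 ± 0.18, or 1.6-fold (adjusted p = 0.304; 0.48 on slide 1). The late lines stood at 7.08 and 7.12, and liver and stomach cells at -3.63 and -3.46.

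PODXL, which codes for podocalyxin, a surface glycoprotein abundant on pluripotent cells, had levels of 7.63 and 7.31 in the ES lines and 7.29 and 7.30 in the early iPS lines. Its difference was -0.17 ± 1.98 (adjusted p = 0.981). The wide error came with a gap between liver and stomach cells, 2.34 against -4.54, which enters the shared spread. KLF5, a Krüppel-like transcription factor active in ES cells, was dim in all 4 samples, with -4.39 and -4.72 in ES cells and -3.58 and -4.73 in early iPS cells, and these values overlapped. Of the 3 pluripotency genes tested, 1 had an unadjusted p under 0.05 and the median difference was 0.40, beside -0.022 over all 511 named genes. No other member of that list had a named probe here.

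**Figure D3:**
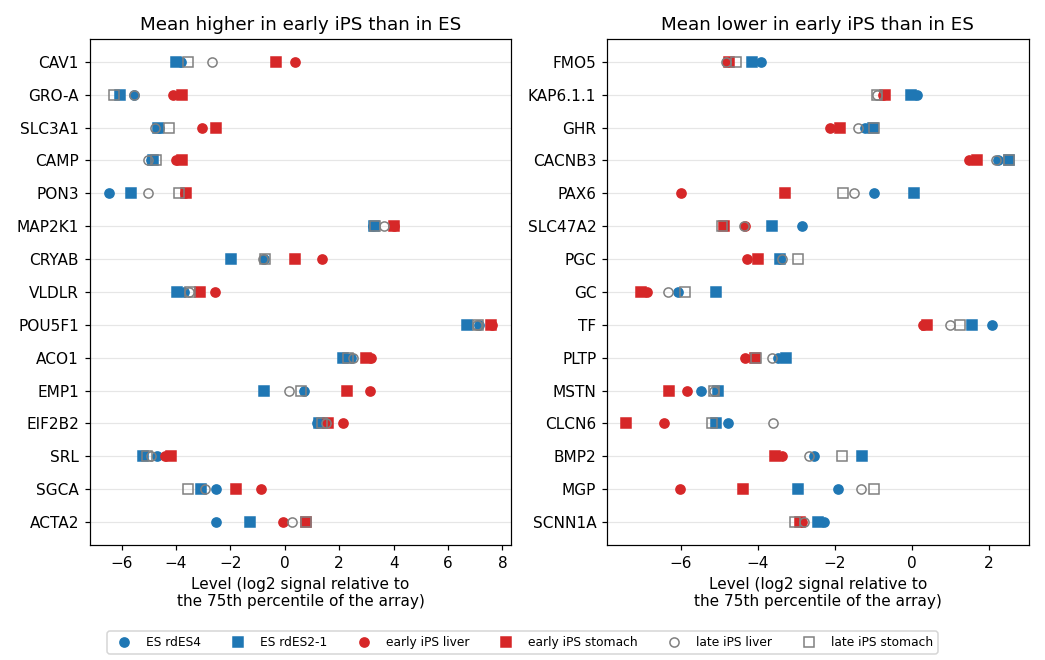
Level (horizontal axis, log2 relative to the 75th percentile of the array) of the 15 genes with the most positive and the 15 with the most negative moderated statistic between early iPS (red) and ES cells (blue), with the late passage lines as open grey symbols. Circles are rdES4 and the liver line, squares rdES2-1 and the stomach line; in each gene the red and blue symbols do not overlap, and none of these genes passed the adjusted p at the probe shown.

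Of the 15 genes on the higher side, EMP1, CRYAB, ACTA2, SGCA and SRL code for membrane, cytoskeletal, stress or muscle proteins. EMP1, an epithelial membrane protein, had levels of 0.72 and -0.78 in the ES lines against 3.14 and 2.30 in the early iPS lines, a difference of 2.75 ± 0.82 (adjusted p = 0.332; 2.43 on slide 1). The late lines, at 0.15 and 0.60, fell within the ES range at this probe. The second EMP1 probe gave a like early difference, 2.50 ± 0.76, from ES levels of -3.99 and -3.77 and early iPS levels of -1.05 and -1.70. There, however, the late lines stood at -2.42 and -1.20, above both ES lines, so the EMP1 probes disagree at late passage. CRYAB, the small heat shock protein alpha B crystallin, had -0.76 and -1.97 against 1.38 and 0.37, a difference of 2.24 ± 0.50 (adjusted p = 0.26). Its late lines were at -0.81 and -0.73. ACTA2, smooth muscle alpha actin, had -2.54 and -1.30 in ES cells against -0.075 and 0.79 in early iPS cells, a difference of 2.28 ± 0.72 (adjusted p = 0.345). In the late lines ACTA2 stood at 0.28 and 0.76. It was brightest in liver and stomach cells, at 7.02 and 5.13.

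SGCA, alpha sarcoglycan of the dystrophin complex, had -2.52 and -3.08 in ES cells against -0.86 and -1.81 in early iPS cells, a difference of 1.46 ± 0.46 (adjusted p = 0.345), which was 0.79 with normexp correction. SRL, sarcalumenin, a calcium-binding protein of the sarcoplasmic reticulum, differed by 0.65 ± 0.20, but its 5 probes ran from -0.21 to 0.65, and the difference was -0.01 with normexp correction and 0.39 without rdES2-1. Smooth muscle and cytoskeleton genes had the highest median of the lists with 3 or more tested members, 0.67 over 4 genes, of which ACTA2 had an unadjusted p under 0.05. The 3 others were CALD1 (caldesmon, 0.78 ± 0.35), TPM2 and TPM1 (tropomyosins), with TPM1 at -0.023 ± 0.32. TPM2 had levels of -6.32 and -6.39 in ES cells against -5.35 and -6.26 in early iPS cells. It was well above background on no ES array and on 1 early iPS array, so the median rests in part on a dim gene.

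Other genes on the higher side belong to inflammation, transport and metabolism. GRO-A, a neutrophil-attracting chemokine, had levels of -5.56 and -6.06 in the ES lines, where it was not well above background, and of -4.11 and -3.80 in the early iPS lines. It was at least 2.85-fold higher in early iPS cells at its brightest probe (adjusted p = 0.182). Its 5 probes differed by 0.84 to 1.86, with bounds of 1.47-, 1.27- and 1.26-fold at others of them. In liver and stomach cells GRO-A was bright, at 5.78 and 5.95, and in the late lines it stood at -5.54 and -6.29. PON3, a paraoxonase of the liver, had -6.47 and -5.65 in ES cells, not well above background, against -3.69 and -3.63 in early iPS cells, at least 3.5-fold higher (adjusted p = 0.211). Its 8 probes disagreed, from -0.29 to 3.19, with 1.56 for their mean. These 2 dim genes had the smaller differences of 0.26 and 0.31 with normexp correction.

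SLC3A1, a subunit of the transporter of cystine and basic amino acids, had -4.64 and -4.67 in ES cells against -3.06 and -2.52 in early iPS cells, a difference of 1.87 ± 0.31 (adjusted p = 0.191). Liver and stomach cells were lower than both at this probe, at -6.45 and -5.76. CAMP, the antimicrobial peptide cathelicidin, differed by 1.00 ± 0.18 (adjusted p = 0.201), and VLDLR, the very low density lipoprotein receptor, by 0.98 ± 0.24 (adjusted p = 0.291). With normexp correction these 3 dim genes had differences of 0.49, 0.09 and 0.25. Among brighter genes, MAP2K1, the kinase MEK1 of the ERK pathway, had 3.23 and 3.27 in ES cells against 4.02 and 4.03 in early iPS cells. The replicates were close together, the difference was 0.77 ± 0.15 (adjusted p = 0.24), and its 5 probes ran from 0.69 to 0.77. ACO1, the iron-responsive aconitase, differed by 0.80 ± 0.23, and EIF2B2, a subunit of the exchange factor of translation initiation, by 0.65 ± 0.20 with 5 probes between 0.64 and 0.70, but by 0.38 without the early liver line.

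Of the 15 genes on the lower side, PAX6, BMP2, MGP, GHR and MSTN act in development or growth. PAX6, a transcription factor of eye and neural development, had levels of -0.97 and 0.061 in the ES lines against -5.98 and -3.29 in the early liver and stomach lines. The early iPS values were far below and far apart, and only 1 of the 2 was well above background. The difference was -4.18 ± 1.02 (adjusted p = 0.288; -5.01 on slide 1), and with normexp correction it was -1.98. The late lines stood nearer to ES cells, at -1.49 and -1.79. BMP2, a bone morphogenetic protein, had -2.53 and -1.30 against -3.38 and -3.56, a difference of -1.56 ± 0.45 (adjusted p = 0.327), and all 8 of its probes lay between -1.69 and -0.97. Without rdES2-1 the BMP2 difference was -0.95, and with normexp correction -0.91.

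MGP, the matrix Gla protein, had levels of -1.91 and -2.95 in the ES lines against -6.01 and -4.37 in the early liver and stomach lines, a difference of -2.76 ± 0.81 (adjusted p = 0.328; -4.10 on slide 1). Only 1 of the 2 early iPS arrays was well above background at this probe. All 9 of its probes had a negative difference, from -2.76 to -0.041, with -1.54 for their mean and -0.95 with normexp correction. At some of the 9 the ES and early iPS values overlapped, and 2 had an unadjusted p under 0.05. In the late lines MGP was higher than in ES cells, at -1.31 and -0.98. In liver and stomach cells it stood at 7.15 and 5.18. GHR, the growth hormone receptor, had -1.22 and -1.01 against -2.11 and -1.86, a difference of -0.87 ± 0.19 (adjusted p = 0.256), and its late values were -1.40 and -0.99. MSTN, or myostatin, a brake on muscle growth, was well above background on 1 ES array only and on no early iPS array. Its bound of 1.08-fold higher in ES cells therefore rests in part on an ES value that was not well above background. With normexp correction the differences of GHR and MSTN were -0.56 and -0.28.

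TF, PGC, PLTP and GC, also among these 15, code for secreted carriers or enzymes. Other genes of plasma proteins had higher values in early iPS cells, HP (haptoglobin) by 1.43 ± 1.38 and RBP4 (retinol-binding protein) by 0.93 ± 0.58, neither past the threshold. TF, transferrin, the iron carrier of plasma, had levels of 2.09 and 1.57 in the ES lines against 0.29 and 0.40 in the early iPS lines, a difference of -1.49 ± 0.40 (adjusted p = 0.318; -1.80 on slide 1). Its 5 probes ran from -1.53 to -1.46, and the late lines lay in between, at 1.00 and 1.24. PGC, the gastric protease precursor progastricsin, had -3.41 in both ES lines against -4.27 and -3.99, a difference of -0.72 ± 0.19 (adjusted p = 0.304). PLTP, the phospholipid transfer protein, differed by -0.83 ± 0.23. With normexp correction PGC and PLTP differed by -0.23 and -0.35. GC, the vitamin D binding protein, was well above background on 1 ES array only and on no early iPS array, and no fold is given for it.

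The remaining genes on the lower side were channels, transporters and 2 others. CACNB3, a beta subunit of voltage-gated calcium channels, had 2.24 and 2.51 in the ES lines against 1.48 and 1.69 in the early iPS lines, a difference of -0.79 ± 0.19 (adjusted p = 0.279). Its late lines were at 2.18 and 2.53, just below and just above the ES values. The second CACNB3 probe, not well above background on either early iPS array, differed by -0.44 ± 0.26. SLC47A2, an exporter of organic cations, differed by -1.36 ± 0.35 and was well above background on 1 early iPS array. CLCN6, a chloride transporter of endosomes, was at least 1.35-fold higher in ES cells and not well above background in early iPS cells. SCNN1A, a subunit of the epithelial sodium channel, differed by -0.51 ± 0.15, but another of its 6 probes stood at 2.85 and the mean of the probes was 0.22. FMO5, a flavin-containing monooxygenase, differed by -0.75 ± 0.16, and its second probe by 0.25. KAP6.1.1, a hair keratin-associated protein, differed by -0.78 ± 0.17, with the late lines as low, at -0.91 on both arrays. With normexp correction the differences were -0.40 for SLC47A2, -0.28 for CLCN6, -0.29 for SCNN1A and -0.24 for FMO5.

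The gene lists were read against the named genes as a whole, of which 6.26% had an unadjusted p under 0.05 and a positive difference and 7.63% a negative one. No member of any list passed the adjusted p at its brightest probe. Lists with a negative median included hormone and cytokine receptors (-0.87, 3 genes, GHR lower at an unadjusted p under 0.05), calcium channels (-0.48, 8 genes, 2 lower) and potassium channels (-0.39, 11 genes, 1 lower). In the calcium channels 7 of 8 differences were below 0, and CACNB3 and CACNA2D1 (-0.89 ± 0.35) were the 2 with an unadjusted p under 0.05. In the potassium channels the 1 was KCNA5 (-0.46 ± 0.14). KCNJ8, a pore subunit of ATP-sensitive potassium channels, had the most negative value of that list, with -4.46 and -1.93 in ES cells against -7.67 and -5.79 in early iPS cells. It was at least 4.49-fold higher in ES cells (adjusted p = 0.444), and its 2 ES values lay far apart.

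Solute carriers, membrane transporters of nutrients and ions, had a median of -0.18 over 39 genes, with 29 differences below 0, 2 genes higher and 3 lower at an unadjusted p under 0.05. Those higher were SLC3A1 and SLC6A8, a creatine transporter (0.78 ± 0.25), and those lower SLC47A2, SLC22A3 (-0.64 ± 0.25) and SLC34A1 (-0.38 ± 0.15). Xenobiotic metabolism genes had a median of -0.19 over 16 genes with 2 lower, FMO5 and SULT4A1 (-0.52 ± 0.18). Inflammation genes had a median of -0.10 over 16 genes with 1 higher, GRO-A. Prostaglandin genes had 0.28 over 9 and metalloproteinases 0.27 over 5, with none at an unadjusted p under 0.05 in either list. In the latter, MMP3, or stromelysin, was seen by 2 probes that disagreed, with differences of -1.23 ± 0.56 and 4.04 ± 1.97.

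Housekeeping groups lay near the median of all named genes. Translation factors had a median of 0.056 over 16 genes with 2 higher, EIF2B2 and EIF2B5 (0.37 ± 0.13). Glycolysis genes had 0.051 over 6, chaperonin genes 0.04 over 4, protein phosphatases 0.012 over 12 and voltage-dependent anion channels 0.19 over 3, with none at an unadjusted p under 0.05. Reference genes had -0.079 over 5, also with none, with ACTB, beta actin, at -0.11 ± 0.14 and GAPDH, a glycolytic enzyme, at -0.13 ± 0.17. Striated muscle genes had a median of 0.0064 over 16 genes, 9 above 0 and 7 below, with 1 higher, TNNC2, fast skeletal troponin C (0.96 ± 0.33). The largest difference of that list was that of CASQ1, 1.20 ± 0.53, with an unadjusted p above 0.05. Its 5 probes ran from 1.20 to 2.16, some with an unadjusted p under 0.05. None but the brightest was well above background on both ES arrays. Vasoactive peptide genes had -0.011 over 6 with 1 higher, BDKRB1, the inducible bradykinin receptor (0.97 ± 0.34).

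Lists of differentiated cell types showed no common direction. Mesenchyme and matrix genes had a median of 0.27 over 5 genes, with CAV1 and MGP at its opposite ends. Hepatocyte genes had -0.30 over 7 with 1 lower, TF, and gastric genes 0.00079 over 4 with 1 lower, PGC. Developmental transcription factors had -0.33 over 3 with 1 lower, PAX6, and the neural list 0.26 over 5 with 2 lower, PAX6 and SCNN1A, the latter an epithelial channel that entered by its symbol. Epithelial junction genes had -0.20 over 5, blood and immune genes -0.066 over 4 and endothelial genes -0.0079 over 3, with none at an unadjusted p under 0.05.

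**Figure D4:**
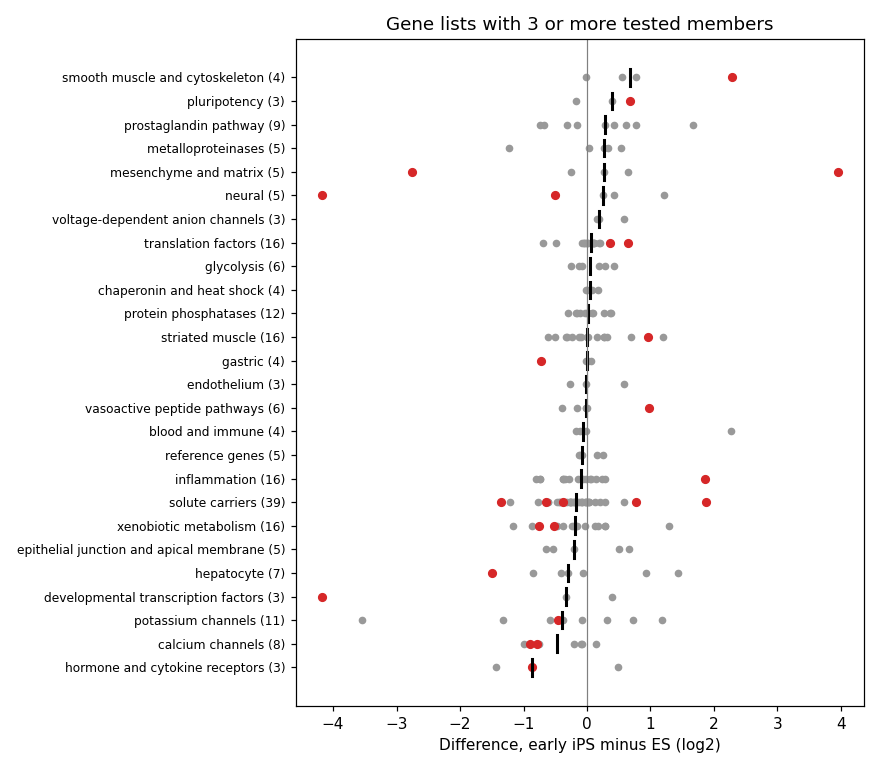
Difference between early iPS and ES cells (horizontal axis, log2) for each tested member of the gene lists with 3 or more tested members, the number of genes in brackets. Each point is a gene at its brightest probe, red where the unadjusted p is under 0.05, and the black bar is the list's median. No gene passed the adjusted p at that probe, and medians run from -0.87 to 0.67.

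Markers of the starting and other cell types were examined, since a culture can hold more than 1 cell type and array data cannot tell fewer cells of a type from less RNA per cell. DCN, decorin, a defining gene of fibroblasts, was not well above background on any ES or early iPS array, while it stood at 4.44 and 5.42 in liver and stomach cells. The summed signal of the 4 mesenchyme markers with a symbol, of 10 listed (DCN, MGP, CAV1 and MMP2), in units of each array's 75th percentile, was 1.88 to 2.21 in ES cells, 2.65 to 3.14 in early iPS cells and 106 to 198 in liver and stomach cells. That of the 4 smooth muscle markers with a symbol, of 6 listed and ACTA2 among them, was 17.3 to 25.4 in ES cells, 34.6 to 39.1 in early iPS cells and 81.7 to 223 in liver and stomach cells. The sum of 7 hepatocyte markers of 8 listed was 4.39 to 5.94 in ES cells and 3.97 to 4.05 in early iPS cells, and that of 4 gastric markers of 6 listed was 0.176 to 0.187 and 0.141 to 0.149. In the same order, 2 of 3 erythroid markers summed to 0.239 to 0.254 and 0.303 to 0.538, and 2 of 4 macrophage or immune markers to 0.0682 to 0.192 and 0.078 to 0.0984. No endothelial or trophoblast marker of those lists had a symbol. CAV1 and ACTA2 are themselves part of the mesenchyme and smooth muscle sums, and the part of such cells in their values was not tested. Single genes made up most of some sums. In ES and early iPS cells the smooth muscle sum was nearly all CALD1, at 4.65 and 4.07 against 5.25 and 5.04. In ES cells the mesenchyme sum was mostly MMP2, at 0.90 and 0.74, and the hepatocyte sum mostly TF. MMP2 stood at 0.88 and 0.83 in early iPS cells. ALB, albumin of hepatocytes, was not well above background on any of the 8 arrays, the labelled liver cells included. The 2 named pluripotency markers, POU5F1 and PODXL, summed to 262 to 339 in ES cells and 348 to 353 in early iPS cells.

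Whether a difference from ES cells at early passage differed from that at late passage was tested as late minus early iPS. The ES arrays cancel in that difference but enter the shared spread. Of 28848 probes, 8 (0.0277%) passed, 2 higher (0.00693%) and 6 lower (0.0208%) in the late lines. At an unadjusted p under 0.05 there were 2412 (8.36%), 976 higher (3.38%) and 1436 lower (4.98%). No named gene passed at its brightest probe, while 68 of 511 (13.3%) had an unadjusted p under 0.05, 21 higher (4.11%) and 47 lower (9.2%). With the line as a block, which pairs the passages of each line, 0 probes passed, with 2535 at an unadjusted p under 0.05. Late minus early values of genes described above were -2.35 and -0.43 for the 2 probes of EMP1, and at the brightest probe -1.65 for CRYAB, -1.96 for GRO-A, 2.99 for PAX6 and 4.04 for MGP, none past the threshold. Those of ACTA2 (0.16), KAP6.1.1 (-0.18) and SLC47A2 (-0.029) were near 0. For each of these 3 genes the late and early lines stood on the same side of ES cells.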

How the data were processed

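Per the file headers, the deposited intensities came from Agilent Feature Extraction 10.5.1.1, with background subtracted and no scaling between arrays. The authors' log2 value table equalled log2 intensities over the 75th percentile, centred per probe on the 8 arrays' median (correlation 1 on every array; column medians -0.0416 to 0.342), and served as an alternative. Here, 19 probes with flagged spots were left out and all 8 arrays were fitted in 4 groups with limma 3.58.1 in R 4.3.3 (two-sided, Benjamini-Hochberg, threshold 0.05; 4 residual degrees of freedom). The fit was tested on simulated data. Symbols came from a RefSeq table of rabbit assembly mOryCun1.1, through 2089 probes with a RefSeq accession. Another 29568 had an Ensembl transcript, and 41571 stayed unnamed. The rule for named genes took, per direction, the 15 with the greatest log2 difference past the threshold without overlap. None passed, so the places were filled by moderated statistic. List members could be named too. The members and lists were chosen with earlier results of these data known. Early and late arrays share a line per the labels, which is the source of the pairing. Over probes, the liver minus stomach difference at early passage correlated with that at late passage at 0.22. Alternatives changed scaling, background, filter, arrays, blocks, probe choice and the value table.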

Additional observations from a re-analysis of the deposited data

Results flagged for a closer look

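In the main fit, which does not pair the passages of a line, late minus early iPS passed the threshold at 8 probes. Each is given because late minus early is also the gap between the 2 passages' differences from ES cells. The CAV1 probe A_04_P004337 stood at -3.98 and -4.52 at early passage and at -7.62 and -7.66 at late passage (late minus early -3.40, adjusted p = 0.0379). A DCN probe, A_04_P068850, stood at -7.67 and -7.64 at early passage and at -3.59 and -3.63 at late passage (4.04, adjusted p = 0.0386). The 5 other DCN probes had late minus early values of -0.90 to 0.16, and none was well above background on a late array, so that the probes of this gene disagree.

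Among probes without a symbol, A_04_P079447 had -3.00 (adjusted p = 0.0346) and A_04_P031867 -4.59 (adjusted p = 0.0374). The other 4 had late minus early values of -2.50 (adjusted p = 0.0374), -2.31 (adjusted p = 0.0374), 1.53 (adjusted p = 0.0443) and -2.27 (adjusted p = 0.0486). None of the 8 passed when the line was a block.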

How the results depend on the processing

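The count of 12 probes past the threshold between early iPS and ES cells was 12 with the authors' value table (12 shared). It was also 12 with the iPS line as a random block (11 shared) and with no filter on dim probes (9 shared). The count was 13 with quantile normalization (12 shared) and 13 with no scaling (11 shared). It was 19 (10 higher, 9 lower; 11 of the 12 among them) on the 6 ES and iPS arrays and 6 (1 higher, 5 lower; 1 of the 12 among them) with normexp, run on median signals, which was chosen after seeing the data. It was 0 on the 4 arrays alone (3465 at an unadjusted p under 0.05), 0 with the slide as a block (3097) and 0 among the 25708 probes well above background on all 4 arrays (2940). Leaving out each array gave 0 to 9. With an array left out, its group's lone sample is assumed to vary like the other groups. No named gene passed at its brightest probe, or as the mean of its probes, under any of these settings. For the 12 probes, 72 of 157 settings kept the call, 85 lost it and 0 reversed it.

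No paired analysis was possible for early iPS against ES cells because the labels give the lines of these groups no shared number or origin. For late against early iPS, the main count was 8. It was 0 with the line as replicate block (pairing the passages) and 8 with quantile normalization, and leaving out each array gave 0 to 1. For the 30 genes of the rule, 439 of 441 settings kept the sign. The 2 exceptions were SCNN1A, at 0.22 with the mean of its probes, and SRL, at -0.01 with normexp. Most probes past the threshold were not well above background in 1 of the groups, which limits their size to bounds.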
